A study of Mus musculus with 8 samples.

Results

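The histone genes H2bc12, H2bc1, H1f5 and H1f1 were followed in RNA of pooled 2-cell mouse embryos from 3 kinds of sire. They were 4 of the 14995 genes with a probeset of their own on the array, and 4 of 38 such histone genes. They had been picked on these same arrays, either for higher values in KDM1A TG than in nonTG arrays or for large swings between arrays, and each was read from the probeset that carried its symbol alone. The values that picked them are given below as a description, and no p-value is attached to these 4 genes. C57BL/6 females, given 5 IU of each gonadotropin, were mated with KDM1A TG males (3 arrays), with nonTG males, the non-transgenic littermates in the study's design (2 arrays), or with C57BL/6 males (3 arrays). All embryos thus had C57BL/6 mothers, were flushed from the oviduct 46 to 48 hours after hCG and were pooled at an average of 26 per group. KDM1A (LSD1) is a demethylase that acts on lysine 4 of histone H3. The genotype field of the labels holds KDM1A TG, nonTG or C57BL/6, read here as the kind of sire. Titles of the first 2 groups write TG3 and nonTG3, and the meaning of the 3 is not given. The promoter that drives the transgene, the ages of the mice, the genotype of the embryos themselves and the number of males behind the pools were not stated in the labels. Whether pools of a group came from separate matings is not stated either, so the p-values below cover the spread among pools only, and that spread may be technical.

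Histones wrap DNA into nucleosomes. H2A, H2B, H3 and H4 form the core, and H1 proteins bind the linker between nucleosomes. Most histone mRNAs are made in S phase from clustered genes, end in a stem-loop in place of a poly(A) tail and are called replication-dependent. H2bc12 (gene identifier 319184) encodes a canonical H2B of this kind. H2bc1 (319177) encodes TH2B, the H2B variant of testis that takes the place of canonical H2B in germ cells. H1f5 (56702) encodes the linker histone H1.5, and H1f1 (80838) encodes H1.1, a linker histone found mainly in testis, thymus and spleen of adult mice. In early mouse embryos the oocyte linker histone encoded by H1f8 is replaced by somatic H1 proteins as the embryonic genome is switched on.

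RefSeq (GRCm38.p6) places all 4 genes on chromosome 13, which holds 56 of the 105 histone genes found there by symbol. Their promoters are printed as the 250 bases before each RefSeq start, 5′ to 3′ on the strand of the gene, because they show which letters the members share beyond the values that picked them. The windows lie at chr13:22035571-22035820 on the + strand, chr13:23934157-23934406 on the - strand, chr13:21780626-21780875 on the - strand and chr13:23763418-23763667 on the + strand. Capitals mark matches on either strand to the octamer of H2B promoters (ATTTGCAT), the CCAAT box (CCAAT), the TATA box (TATAAA) and the H1 box of linker histone promoters (AAACACA). No 2 of the 19 matches overlapped.
H2bc12: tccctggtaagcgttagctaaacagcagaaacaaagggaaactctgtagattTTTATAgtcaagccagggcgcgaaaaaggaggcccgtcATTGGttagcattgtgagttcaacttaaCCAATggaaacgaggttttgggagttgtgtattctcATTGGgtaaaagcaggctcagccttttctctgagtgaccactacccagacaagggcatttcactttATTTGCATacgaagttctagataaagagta
H2bc1: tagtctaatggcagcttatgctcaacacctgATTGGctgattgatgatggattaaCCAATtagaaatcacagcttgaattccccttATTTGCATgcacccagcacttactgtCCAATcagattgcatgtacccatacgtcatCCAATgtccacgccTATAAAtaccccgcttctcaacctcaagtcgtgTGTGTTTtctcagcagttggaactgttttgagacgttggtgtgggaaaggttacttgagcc
H1f5: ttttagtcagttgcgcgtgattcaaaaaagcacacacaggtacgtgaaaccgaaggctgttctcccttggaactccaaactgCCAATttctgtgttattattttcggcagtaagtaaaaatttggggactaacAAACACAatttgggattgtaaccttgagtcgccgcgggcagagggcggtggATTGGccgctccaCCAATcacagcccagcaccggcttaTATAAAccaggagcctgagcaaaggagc
H1f1: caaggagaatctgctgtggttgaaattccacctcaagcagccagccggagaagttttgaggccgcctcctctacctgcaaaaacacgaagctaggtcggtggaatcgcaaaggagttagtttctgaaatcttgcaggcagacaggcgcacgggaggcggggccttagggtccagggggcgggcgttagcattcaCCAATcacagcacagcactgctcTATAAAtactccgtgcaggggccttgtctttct

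Both H2B genes held the octamer on their own strand, starting 30 bases before the start of H2bc12 and 164 bases before that of H2bc1. Neither H1 window held it. Across 32851 windows of the same length, 1.6% held the octamer, against 22.4% of 58 windows of replication-dependent histone genes and 7 of 15 H2B windows. All 4 genes held a CCAAT box, which 33.8% of all windows and 82.8% of the replication-dependent windows held. A TATA box on the gene's strand began 28 bases before the start of H1f5 and 33 bases before that of H1f1, close to each other in distance. H2bc1 held it 94 bases before its RefSeq start, and H2bc12 held it only on the other strand. TATA matches occurred in 12.4% of all windows. The H1 box was found in H1f5, 117 bases before the start, and on the other strand in H2bc1. It occurred in 6.25% of all windows and in 5 of 10 H1 windows. The H1f1 window held no match to these 7 letters. A match describes letters and is not evidence of binding.

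**Figure D1:**
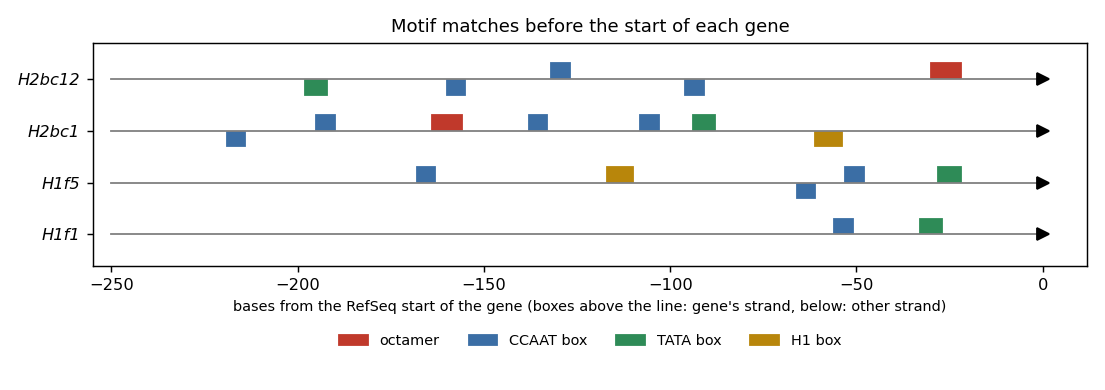
Motif matches in the 250 bases before each gene, plotted by distance from the RefSeq start (x axis, bases), with 1 line per gene and a coloured box per match, above the line for the gene's strand and below it for the other. Both H2B genes hold an octamer, and both H1 genes hold a TATA box, at 28 and 33 bases, with a CCAAT box at 53 and 56 bases.

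H2bc12 stood higher in every KDM1A TG array than in either nonTG array. It had log2 values of 5.00, 5.49 and 5.21 in KDM1A TG arrays, 2.96 and 3.97 in the nonTG arrays and 4.10, 3.34 and 5.24 in the C57BL/6 arrays. The KDM1A TG arrays lay within 0.49 of each other, while C57BL/6 arrays spanned 1.90 and reached from the nonTG range up into the KDM1A TG range. Means were 5.23 ± 0.24 (SD, n = 3) in KDM1A TG and 3.46 ± 0.72 (SD, n = 2) in nonTG, a log2 difference of 1.77 (SE 0.64), or 3.41-fold. Against C57BL/6 (4.23 ± 0.96, SD, n = 3) the KDM1A TG difference was 1.003 (SE 0.573), with arrays that overlapped. The nonTG minus C57BL/6 difference was -0.77 (SE 0.64), and these arrays overlapped as well.

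H2bc1, the testis H2B, ranked the groups alike. It had log2 values of 5.75, 6.71 and 6.68 in KDM1A TG, 4.12 and 5.60 in nonTG and 5.53, 5.87 and 6.34 in C57BL/6. The lowest KDM1A TG array exceeded the higher nonTG array by only 0.15, and nonTG replicate 1 stood 1.48 below nonTG replicate 2. The mean was 6.38 ± 0.55 (SD, n = 3) in KDM1A TG and 4.86 ± 1.04 (SD, n = 2) in nonTG, a log2 difference of 1.52 (SE 0.58), or 2.87-fold. The C57BL/6 mean was 5.92 ± 0.41 (SD, n = 3). KDM1A TG arrays differed from it by 0.46 (SE 0.52) and nonTG arrays by -1.06 (SE 0.58), both with arrays that overlapped.

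H1f5 had the widest spread of the 4 genes. Its log2 values were 4.09, 6.10 and 5.36 in KDM1A TG, 4.09 and 3.18 in nonTG and 2.90, 4.97 and 4.32 in C57BL/6. The KDM1A TG and nonTG arrays met at 4.09, where KDM1A TG replicate 1 lay 0.007 above nonTG replicate 1. Here nonTG replicate 2 was the lower nonTG array, the reverse of the other 3 genes. Means were 5.18 ± 1.01 (SD, n = 3) in KDM1A TG and 3.64 ± 0.64 (SD, n = 2) in nonTG, a log2 difference of 1.55 (SE 0.89), or 2.92-fold. From C57BL/6 (4.06 ± 1.06, SD, n = 3), KDM1A TG differed by 1.12 (SE 0.79) and nonTG by -0.43 (SE 0.89), and the arrays overlapped in both.

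H1f1 showed the weakest separation. It had log2 values of 4.56, 5.44 and 5.38 in KDM1A TG, 3.13 and 5.01 in nonTG and 4.55, 4.34 and 5.78 in C57BL/6. Apart from nonTG replicate 1, every array lay between 4.34 and 5.78, and KDM1A TG replicate 1 was below nonTG replicate 2. Means were 5.12 ± 0.49 (SD, n = 3) in KDM1A TG and 4.07 ± 1.33 (SD, n = 2) in nonTG, a log2 difference of 1.05 (SE 0.76), or 2.07-fold. The C57BL/6 mean was 4.89 ± 0.78 (SD, n = 3), from which KDM1A TG differed by 0.23 (SE 0.68) and nonTG by -0.82 (SE 0.76), again with overlapping arrays.

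**Figure D2:**
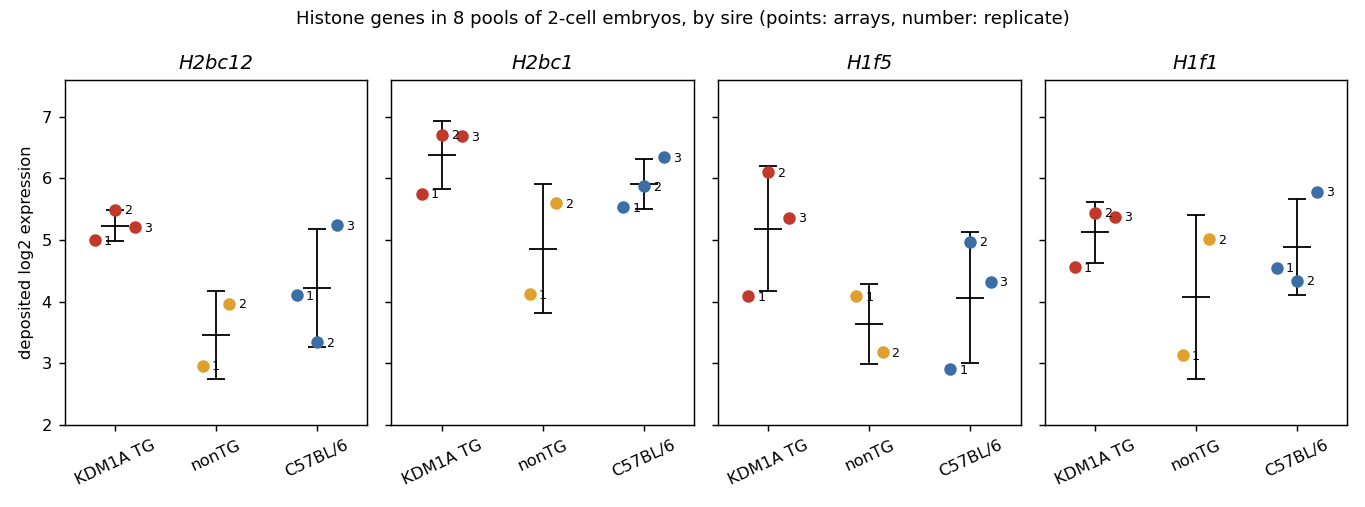
Deposited log2 expression (y axis) of each gene in the 8 arrays, grouped by sire on the x axis; points are arrays numbered by replicate, and bars give the mean and SD. KDM1A TG arrays of H2bc12 sit between 5.00 and 5.49 above both nonTG arrays, and nonTG replicate 1 is the lowest array for H2bc12, H2bc1 and H1f1.

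In all 4 genes the mean was highest in KDM1A TG, lower in C57BL/6 and lowest in nonTG. Neighbours in that order overlapped for every gene, KDM1A TG with C57BL/6 and C57BL/6 with nonTG. The ends of the order did not overlap for H2bc12, H2bc1 and H1f5, which is 3 of 4 genes. Over all 11444 genes tested, 16.0% had KDM1A TG arrays all above nonTG arrays, and the members had been picked in part for that difference. The 3 comparisons share arrays, so their values for a gene are not independent of each other. The SE above comes from the arrays of that gene alone. The limma fit, which draws each spread toward that of all genes (73 prior against 5 residual degrees of freedom), gave smaller SEs of 0.39, 0.39, 0.42 and 0.41 for the KDM1A TG minus nonTG differences of H2bc12, H2bc1, H1f5 and H1f1.

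**Figure D3:**
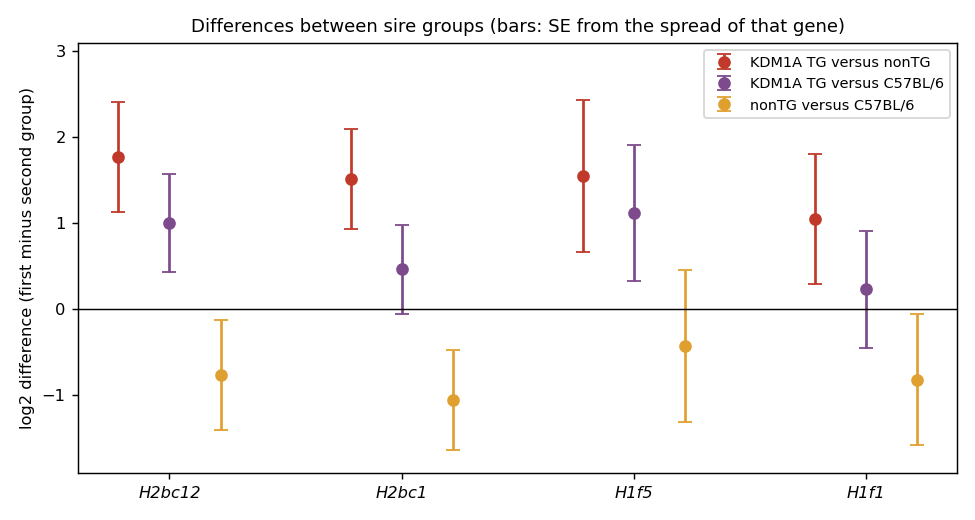
Log2 differences between sire groups (y axis) for each gene (x axis), with the SE from that gene's own spread as bars; colours are the 3 comparisons, each the group named first minus the other. KDM1A TG minus nonTG is the highest value for every gene, 1.05 for H1f1 up to 1.77 for H2bc12, and nonTG minus C57BL/6 lies under 0 in each.

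The size of these differences turned on the 2 nonTG arrays. Without nonTG replicate 1, the KDM1A TG minus nonTG difference was 1.26 for H2bc12, 0.78 for H2bc1, 2.00 for H1f5 and 0.11 for H1f1. Without nonTG replicate 2, they were 2.28, 2.26, 1.10 and 1.99 in the same order of genes. H1f1 thus differed by 0.11 or 1.99 depending on which nonTG array was kept. For H1f5 the KDM1A TG side mattered too, and its difference was 1.09 without KDM1A TG replicate 2.

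Swings between single arrays had been 1 of the grounds for choosing these genes. The range over the 8 arrays was 3.20 on the log2 scale for H1f5, or 9.16-fold, from C57BL/6 replicate 1 at the low end to KDM1A TG replicate 2 at the high end. It was 2.65 for H1f1, 2.59 for H2bc1 and 2.53 for H2bc12, where the median over all genes tested was 1.14. A wider range was seen in 0.463% of genes for H1f5 and in 1.59% for H2bc12. Much of this lay within groups. C57BL/6 pools, which have sires of 1 strain, spanned 2.07 for H1f5, 1.90 for H2bc12, 1.44 for H1f1 and 0.81 for H2bc1.

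Array by array, H2bc12, H2bc1 and H1f1 had closer profiles to each other than to H1f5. With each gene centred on its mean over the 8 arrays, which leaves the differences between sire groups in, H2bc1 and H1f1 differed by 0.273 per array on average over the 8 arrays, H2bc12 and H2bc1 by 0.352, and H2bc12 and H1f1 by 0.398. H1f5 differed from H2bc1 by 0.731, from H2bc12 by 0.916 and from H1f1 by 0.954, while all genes tested differed from H1f5 by a median of 0.863. These are descriptions of the 8 arrays that also served to pick the genes.

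The genes with the most similar profiles were ranked by the same mean absolute difference among 9969 named genes. For H1f1 these were Klf17, a Krüppel-like transcription factor (0.164), Pramel7, a PRAME family gene of early embryos (0.193), and Cdca5, which encodes the cohesin protector sororin (0.209). For H2bc1 they were Abhd6, a monoacylglycerol lipase (0.250), the gasdermin gene Gsdmc2 (0.253) and H1f1 itself (0.273). Those of H2bc12 were Scd1, a fatty acid desaturase (0.292), Gsdmc2 again (0.306) and the H4 gene H4f16 (0.339). H1f5 had no profile as close, with Sft2d1 (0.479), Cyp2j8 (0.482) and Smim13 (0.498) nearest. Klf17 had log2 values of 5.31, 6.33 and 5.58 in KDM1A TG, 3.91 and 5.79 in nonTG and 5.63, 4.94 and 6.55 in C57BL/6. Like H1f1, it was lowest in nonTG replicate 1 and highest in C57BL/6 replicate 3.

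The remaining histone genes were tested between KDM1A TG and nonTG arrays, whose sires were littermates by design. Of 34, 23 passed the filter on low values (a mean over all arrays above log2 2.07) and 11 did not. In limma, 0 of the 23 passed at an adjusted p of 0.05, where 0.0437% of all genes did, and at an unadjusted p under 0.05 there were 5 higher and 1 lower, against 4.97% and 1.43% of all genes. For 16 of the 23 the difference was above 0, against 65.4% of all genes, and their median was 0.31, against 0.16 for all genes. KDM1A TG arrays lay above both nonTG arrays in 8 of the 23 (16.0% of all genes) and below them in 1 (6.38%). Leaving out 1 array of these groups gave 10 or 11 of 23, and the share of all genes was then 21.6% without KDM1A TG replicate 1, 34.0% without replicate 2 and 19.5% without replicate 3, and 36.6% and 33.0% without nonTG replicates 1 and 2.

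H4f16, an H4 gene on chromosome 6, had the smallest p of the 23. Its log2 values were 5.94, 6.32 and 5.57 in KDM1A TG, 3.72 and 5.24 in nonTG and 3.77, 4.29 and 6.00 in C57BL/6. The log2 difference between KDM1A TG and nonTG was 1.47 (limma SE 0.41, adjusted p = 0.281), above that of H1f1, although H4f16 was not among the genes picked. Against C57BL/6 it was 1.26 (limma SE 0.37, adjusted p = 0.0826). All H4 genes encode nearly the same protein, so probes for 1 of them may bind RNA of others. H4f16 had 2 probesets of its own, and only the brighter is shown. Over the alternatives tried, its difference ran from 0.55 to 2.23 for KDM1A TG minus nonTG and from 0.59 to 2.26 for KDM1A TG minus C57BL/6.

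H2ax, the H2A variant that is phosphorylated at DNA breaks, had the smallest p among H2A genes. It had a log2 difference of 0.96 between KDM1A TG and nonTG (limma SE 0.37, adjusted p = 0.689), with all 3 KDM1A TG arrays above both nonTG arrays. H2bc3, a canonical H2B, differed by 0.95 (limma SE 0.39, adjusted p = 0.75), but its low array was nonTG replicate 2, at 3.51 against 5.02 in nonTG replicate 1. Cenpa, the H3 variant of centromeres, differed by 0.47 (limma SE 0.36, adjusted p = 0.847). H1f8, the oocyte linker histone, differed by 0.47 (limma SE 0.36, adjusted p = 0.847), with means of 3.68 in KDM1A TG, 3.21 in nonTG and 3.91 in C57BL/6. The somatic linker gene H1f2 gave 0.17 (limma SE 0.37, adjusted p = 0.931). Macroh2a2, a macroH2A gene, was on the other side at -0.81 (limma SE 0.38, adjusted p = 0.772).

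**Figure D4:**
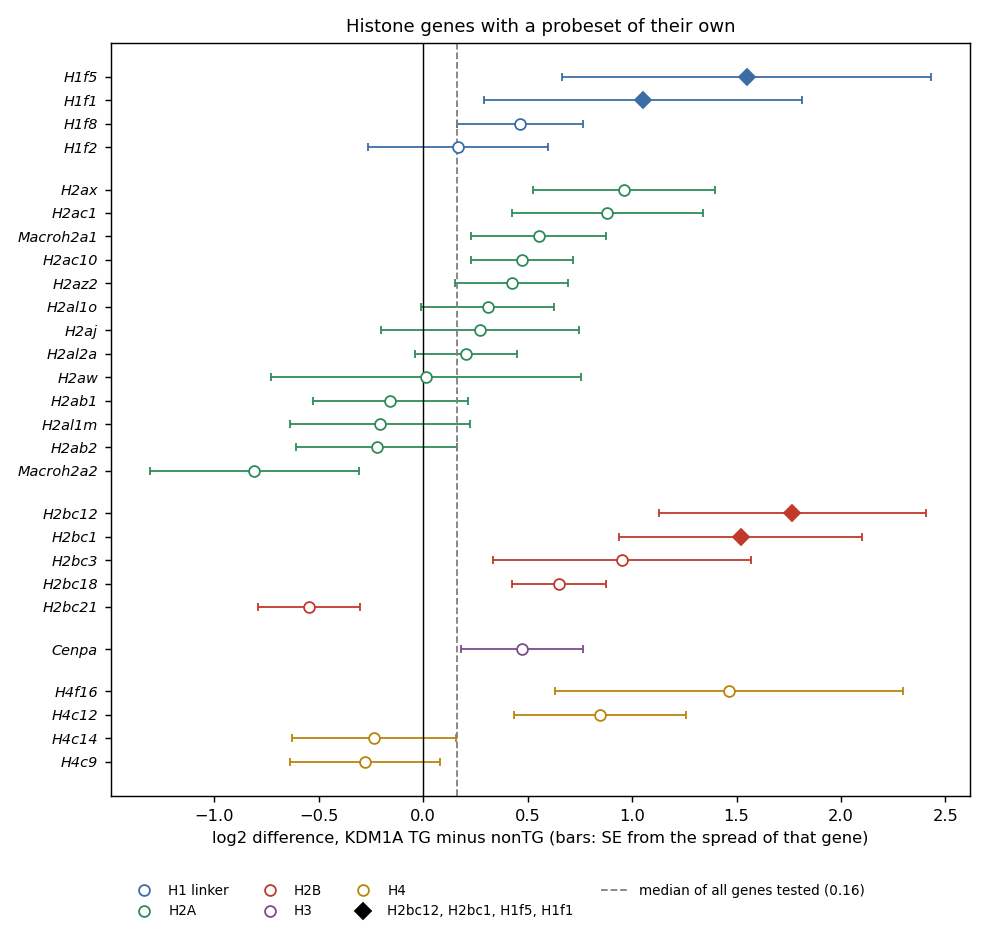
Log2 difference, KDM1A TG minus nonTG (x axis), of the 27 histone genes that passed the filter, by histone class, with the SE from each gene's own spread; filled diamonds are H2bc12, H2bc1, H1f5 and H1f1, open circles the others, and the dashed line is the median of all genes (0.16). H4f16 at 1.47 lies among the diamonds, and Macroh2a2 at -0.81 is the lowest.

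Immediate neighbours of the members along chromosome 13, in RefSeq order, could be compared in 2 cases. H2ac1, which encodes the testis H2A partner of TH2B, lies next to H2bc1. It had log2 values of 6.71, 7.82 and 6.91 in KDM1A TG, 5.88 and 6.65 in nonTG and 6.42, 5.97 and 6.70 in C57BL/6. Its KDM1A TG arrays lay above those of both other groups, with a log2 difference of 0.88 from nonTG (limma SE 0.37, adjusted p = 0.77) and of 0.78 from C57BL/6 (limma SE 0.34, adjusted p = 0.277). H4c9, next to H2bc12, had -0.28 from nonTG (limma SE 0.37, adjusted p = 0.89). The other immediate neighbours, such as H2bc15 and H3c11 beside H1f5 and H3c1 beside H1f1, had no probeset of their own or did not pass the filter.

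Many replication-dependent histone genes are so alike that a probeset carries several symbols, and 36 such histone probesets with distinct values were found. They had no part in picking the members, and no gene is named from them alone. Some list H2bc12 among their symbols, so the counts below are not independent of the members. Fitted with all 16072 probesets above the filter, 26 of them were tested. None passed in limma between KDM1A TG and nonTG (0 of 26, 0.0311% of all probesets), and 3 were higher at an unadjusted p under 0.05 (3.86% of all probesets). Among the 19 that carry replication-dependent symbols, 13 had a difference above 0, against 62.2% of all probesets, with a median of 0.55, against 0.13. KDM1A TG arrays lay above nonTG arrays in 8 of the 19, where 14.0% of all probesets did so. Many of these probesets list the same symbols, so they are not 19 separate measurements. The brightest H2B probeset that lists H2bc12 among its 12 symbols read 7.58, 8.24 and 7.88 in KDM1A TG, 6.59 and 7.47 in nonTG and 6.70, 7.30 and 7.52 in C57BL/6. Its differences were 0.87 from nonTG (limma SE 0.38, adjusted p = 0.885) and 0.72 from C57BL/6 (limma SE 0.34, adjusted p = 0.411), smaller than those of the H2bc12 probeset itself. It was counted among the 3 and the 8 above. In KDM1A TG against C57BL/6, 0 of the 26 passed (0.0436% of all probesets), 17 lay above 0 (57.1%) and 3 had KDM1A TG arrays above all C57BL/6 arrays (12.2%). In nonTG against C57BL/6, 0 passed, 10 lay above 0 (49.3%), and nonTG arrays lay below all C57BL/6 arrays in 7 (10.3%) and above them in 1 (13.6%). Of the 7 below, 6 were among the 7 probesets of H2A variants, and these 6 list many of the same symbols. The 19 with replication-dependent symbols gave 1.

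KDM1A TG and C57BL/6 arrays were compared to set embryos of transgenic sires beside those of the control strain. Of the 23 other histone genes, 0 passed in limma, against 0.725% of all genes, and 6 were higher and 1 lower at an unadjusted p under 0.05, against 12.1% and 2.10% of all genes. KDM1A TG arrays lay above all C57BL/6 arrays in 2 (14.5% of all genes) and below them in 1 (5.34%). Their median difference was 0.08, against 0.18 for all genes, and 13 of 23 lay above 0, against 64.9%. Smallest p in each class belonged to H4f16 (above), Macroh2a2 (-0.80, limma SE 0.34, adjusted p = 0.267), H1f2 (0.83, limma SE 0.33, adjusted p = 0.246), H2bc18, a canonical H2B gene (0.72, limma SE 0.32, adjusted p = 0.307), and Cenpa (0.17, adjusted p = 0.809). Without C57BL/6 replicate 3, H4f16 passed with a difference of 1.92 (limma adjusted p = 0.00429). With array weights, 4 genes passed in limma, H4f16 (1.54, adjusted p = 0.000553), H1f2 (1.12, adjusted p = 0.00487), H4c12 (0.94, adjusted p = 0.0189) and Macroh2a2 (-0.86, adjusted p = 0.0313). The share of all genes passing in these alternative fits is not given here, so the counts are no result about histone genes.

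Between nonTG and C57BL/6 arrays, 0 of the 23 passed in limma, against 0.131% of all genes, with 0 higher and 1 lower at an unadjusted p under 0.05, against 4.61% and 3.62% of all genes. The nonTG arrays lay above all C57BL/6 arrays in 2 (15.4% of all genes) and below them in 2 (9.41%). The gene that was lower at an unadjusted p under 0.05 was H2bc3, at -0.88 (limma SE 0.39, adjusted p = 0.521), and its arrays overlapped. The median of the 23 was -0.13, against 0.04 for all genes, and 9 of 23 lay above 0, against 53.2%. Smallest p in the other classes belonged to H1f8 (-0.70, limma SE 0.36, adjusted p = 0.63), H2az2, an H2A.Z gene (-0.44, limma SE 0.36, adjusted p = 0.75), Cenpa (-0.30, adjusted p = 0.824) and H4c12 (-0.24, adjusted p = 0.861).

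Genes that make and place histones were compared in the same way. The list of histone gene transcription and mRNA 3′ end processing had 14 of 24 genes with a probeset, all tested, and 0 passed in any comparison by limma. Between KDM1A TG and nonTG, 13 of the 14 were above 0, against 65.4% of all genes, with a median of 0.39, against 0.16. At an unadjusted p under 0.05, 1 was higher, where 4.97% of all genes were. That was E2f4, an E2F family transcription factor, with 5.11, 5.53 and 5.23 in KDM1A TG, 4.17 and 4.09 in nonTG and 5.12, 4.20 and 5.59 in C57BL/6 (difference from nonTG 1.16, limma SE 0.37, adjusted p = 0.511). Cdk2, the kinase that activates histone gene transcription through NPAT, differed by 0.51 and Ice1 by 0.50 (limma adjusted p = 0.847 for both). Against C57BL/6 the list's median was 0.21 for KDM1A TG and -0.10 for nonTG, against 0.18 and 0.04 for all genes. At an unadjusted p under 0.05, 1 gene was higher in KDM1A TG (12.1% of all genes) and 1 lower in nonTG (3.62%).

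Histone chaperones had 19 of 33 genes tested, and 0 passed in any comparison by limma. Between KDM1A TG and nonTG, 17 of 19 lay above 0, against 65.4% of all genes, with a median of 0.36, against 0.16. At an unadjusted p under 0.05, 2 were higher, where 4.97% of all genes were. These were Mis18a, needed for loading CENP-A (1.06, limma SE 0.37, adjusted p = 0.582), and Npm2, the oocyte nucleoplasmin that handles sperm chromatin after fertilization (0.84, limma SE 0.36, adjusted p = 0.77). The importin gene Ipo4 gave 0.68 (limma SE 0.36, adjusted p = 0.809). Against C57BL/6 the median was 0.47 for KDM1A TG, with 5 of 19 higher at an unadjusted p under 0.05, where all genes had a median of 0.18 and 12.1% were higher. It was 0.11 for nonTG, with 2 higher and 2 lower, where all genes had a median of 0.04, with 4.61% higher and 3.62% lower. S phase genes gave 9 of 13 above 0 and a median of 0.32 between KDM1A TG and nonTG (all genes 65.4% and 0.16), with 0 called in limma and 0 at an unadjusted p under 0.05. Mcm5, a subunit of the replicative helicase, had the smallest p (0.59, adjusted p = 0.839), before Cdc45, another helicase subunit (0.55), and Rrm1, a ribonucleotide reductase subunit (0.52, limma adjusted p = 0.847 for both).

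Markers of embryo and oviduct differed between arrays alongside these genes. Of 15 markers of the 2-cell stage with a probeset, 12 passed the filter, as did all 16 oocyte markers. The mean of the 2-cell markers was 4.34, 4.91 and 4.35 in KDM1A TG, 3.70 and 4.59 in nonTG and 5.01, 4.15 and 4.97 in C57BL/6, so it too was lowest in nonTG replicate 1. The oocyte marker mean was 4.80, 5.54 and 4.88 in KDM1A TG, 4.30 and 4.74 in nonTG and 5.52, 4.66 and 5.43 in C57BL/6. H1f1 lay closer to the 2-cell marker profile (0.43 per array, centred) than to that of oviduct epithelium (0.76), and H1f5 was at 0.98 and 0.91. H2bc12 was at 0.68 and 0.82 from these profiles, and H2bc1 at 0.51 and 0.69. The closeness of H1f1 was not particular to 2-cell markers. It was nearly as near to the lists of histone processing (0.46), oocyte (0.47), cumulus and granulosa (0.47) and S phase genes (0.49). The 20 oviduct epithelial markers averaged 6.23, 5.53 and 6.25 in KDM1A TG, 6.02 and 5.78 in nonTG and 5.40, 5.78 and 5.06 in C57BL/6. Stromal and muscle markers (18 of 18 tested) averaged 4.61, 4.35 and 5.93 in KDM1A TG, 5.23 and 3.89 in nonTG and 4.26, 4.40 and 3.64 in C57BL/6. With the oviduct mean as a covariate the KDM1A TG minus nonTG differences of the 4 genes, picked in part for that difference, were between 1.22 and 1.94. With this covariate H2bc12 differed from C57BL/6 by 1.94 in KDM1A TG and 0.002 in nonTG, against 1.003 and -0.77 without it. Between KDM1A TG and nonTG, 10 of 12 2-cell markers (median 0.34), 14 of 16 oocyte markers (0.61), 12 of 20 oviduct markers (0.09) and 17 of 18 stromal markers (0.34) lay above 0, with 0 called in limma (0.0437% of all genes). Of all genes, 65.4% lay above 0, with a median of 0.16. At an unadjusted p under 0.05, 3, 4, 0 and 2 of them were higher, where 4.97% of all genes were. In KDM1A TG against C57BL/6, 19 of 20 oviduct markers (median 0.56) and 18 of 18 stromal markers (0.98) lay above 0, against 64.9% of all genes (0.18). At an unadjusted p under 0.05, 8 and 11 of them were higher, where 12.1% of all genes were. Among the stromal markers 1 passed in limma (0.725% of all genes), the smooth muscle actin gene Acta2, at 1.75 (adjusted p = 0.0155). In that comparison 3 of 12 2-cell markers (-0.19) and 5 of 16 oocyte markers (-0.17) lay above 0. In nonTG against C57BL/6, 18 of 20 oviduct markers (0.50) and 14 of 18 stromal markers (0.51) lay above 0, and 1 of 12 2-cell markers (-0.61) and 1 of 16 oocyte markers (-0.67), against 53.2% of all genes (0.04), with 0 called in limma. At an unadjusted p under 0.05, 4 oviduct and 4 stromal markers were higher (4.61% of all genes), and 4 2-cell and 5 oocyte markers were lower (3.62%). The part of these cells in the differences was not tested. In pools of embryos, fewer cells of a type and less RNA per cell cannot be told apart.

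Of the other lists, cumulus and granulosa, blood and immune, and sperm markers had 8 of 15, 8 of 16 and 4 of 16 genes tested. Their array means ran from 2.85 to 3.32, 3.43 to 3.59 and 2.93 to 3.43 in KDM1A TG, from 2.88 to 2.88, 2.70 to 3.76 and 3.53 to 3.55 in nonTG, and from 2.74 to 3.55, 3.29 to 4.26 and 2.94 to 3.44 in C57BL/6. Between KDM1A TG and nonTG, 3 of 8, 7 of 8 and 1 of 4 of them lay above 0, against 65.4% of all genes. In limma 0 were called (0.0437% of all genes), and 1 cumulus marker was higher at an unadjusted p under 0.05 (4.97%). In KDM1A TG against C57BL/6, 4 of 8, 5 of 8 and 2 of 4 lay above 0, against 64.9%, and 1 passed in limma (0.725% of all genes), S100a9, a gene of neutrophils, at -1.92 (adjusted p = 0.0111). S100a9 read 6.41, 2.82 and 3.70 in C57BL/6 and 2.06, 3.14 and 1.96 in KDM1A TG, so C57BL/6 replicate 1 stood apart and the arrays overlapped. The blood marker S100a8 was also highest in C57BL/6 replicate 1, at 7.49 against 3.76 and 4.24 in C57BL/6 replicates 2 and 3. In nonTG against C57BL/6, 3 of 8, 3 of 8 and 4 of 4 lay above 0, against 53.2%, with 0 called in limma and 2 blood markers lower at an unadjusted p under 0.05 (3.62%). Protamine and transition protein genes, whose products replace histones in sperm, had 2 of 5 genes tested, Tnp1 and Prm3, at -0.44 (limma adjusted p = 0.847) and 0.00 (limma adjusted p = 0.998) between KDM1A TG and nonTG. The array medians lay between 2.73 and 2.86. Values of KDM1A TG replicates 1 and 3 were spread more widely, with interquartile ranges of 2.38 and 2.60, where those of the remaining arrays were 1.87 to 2.09. After quantile normalization the KDM1A TG minus nonTG differences of H2bc12, H2bc1, H1f5 and H1f1 were 1.53, 1.34, 1.33 and 0.85. The median of all genes was then 0.05, against 0.16 as deposited. Kdm1a was not analysed here.

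**Figure D5:**
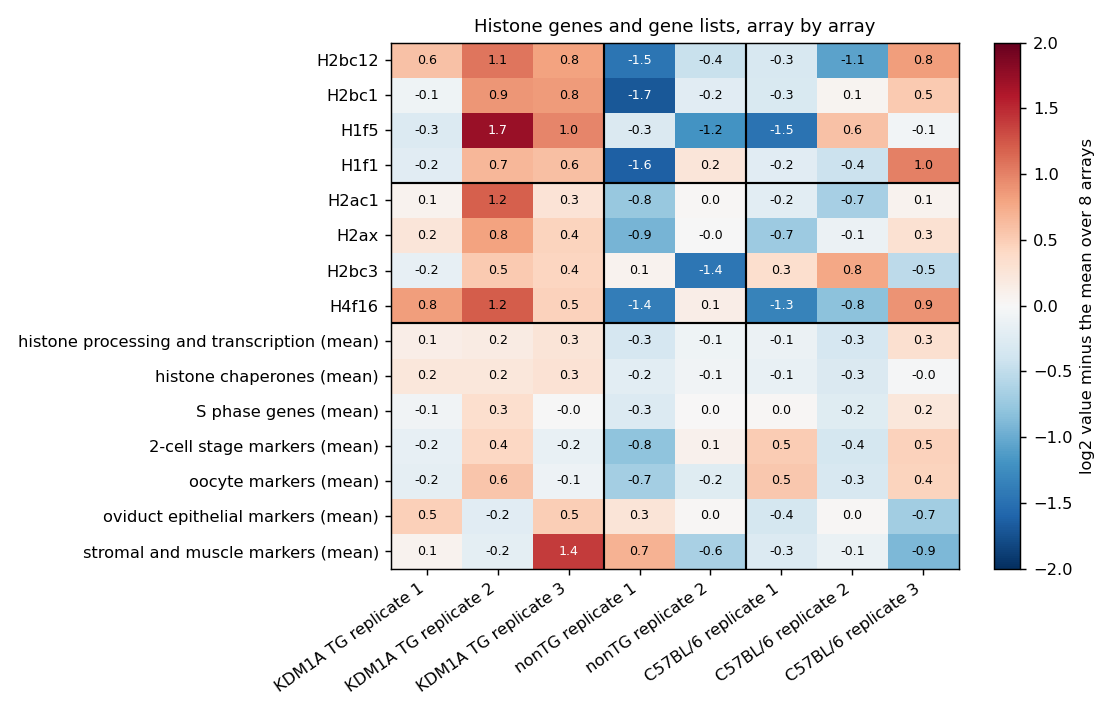
Log2 value minus the mean over the 8 arrays (colour and printed number) for the 4 genes, for H2ac1, H2ax, H2bc3 and H4f16 and for the means of 7 gene lists (rows), by array (columns, grouped by sire). In nonTG replicate 1, H2bc12, H2bc1 and H1f1 are at -1.46 to -1.70, and the 2-cell and oocyte marker means are low in the same column.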

How the data were processed

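The series matrix of 8 arrays was used, with 22961 probesets. Its deposited values are log2 expression summaries, per the series matrix. The tools R 3.1.0, limma, RMA and oligo are listed in the submitters' processing notes, with no roles. Background correction, build and filters were not stated there. Symbols came from the platform annotation (15745 probesets with 1 symbol, 1320 with several, 5896 unnamed), 15621 of them updated by gene identifier through the RefSeq table (GRCm38.p6), which served only for names and gene order. Each gene was read from its brightest probeset, and 11444 genes with a mean above the 30th percentile of probesets (log2 2.07) were tested. Promoter windows came from RefSeq.

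Group means were fitted on all 8 arrays by limma 3.58.1 (lmFit, eBayes; R 4.3.3). Tests were two-sided, calls used a Benjamini-Hochberg adjusted p of 0.05 over all genes tested, and the fit was checked on simulated data. Values were used as deposited, although the columns do not share 1 distribution. Quantile normalization and cyclic loess were run as alternatives. With 3, 2 and 3 arrays per group the number of arrays limits precision. The 4 genes and all lists were chosen with earlier results of these data known. Genes named are the 4 members, per comparison the other histone gene with the smallest p in each class, the 3 genes nearest each member in profile (predicted genes and small RNAs left out) and up to 3 genes per list by smallest p. H2ac1 and H4c9 were added as neighbours after their values were seen, as was the H2B probeset shown. Alternatives are given in the closing section.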

Additional observations from a re-analysis of the deposited data

How the results depend on the processing

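The KDM1A TG minus nonTG difference stayed above 0 for all 4 genes under every alternative run. Each run reused the arrays on which these genes had been picked, in part for that difference, so its sign was largely set in advance. Leaving out 1 array at a time, the KDM1A TG minus nonTG difference ran from 1.26 to 2.28 for H2bc12, 0.78 to 2.26 for H2bc1, 1.09 to 2.09 for H1f5 and 0.11 to 1.99 for H1f1. For KDM1A TG minus C57BL/6 the same ranges were 0.56 to 1.51, 0.27 to 0.78, 0.54 to 1.66 and -0.041 to 0.68. For nonTG minus C57BL/6 they were -1.27 to -0.26, -1.79 to -0.32, -1.01 to 0.024 and -1.76 to 0.13. The H1f1 difference between KDM1A TG and C57BL/6 was -0.039 after quantile normalization, -0.085 after cyclic loess and 1.15 once oviduct marker level entered as a covariate. With that covariate H2bc12 was at 1.94 from C57BL/6 in KDM1A TG and at 0.002 in nonTG. H1f5 was at 0.001 between nonTG and C57BL/6 with array weights. The cause was not tested for any of these.

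No other histone gene passed between KDM1A TG and nonTG or between nonTG and C57BL/6 under any alternative. Between KDM1A TG and C57BL/6, 1 passed (H4f16) with median centring, without the filter, and with trend and robust eBayes, and 4 with array weights, and leaving out single arrays gave 0 to 1. At an adjusted p under 0.1 it was 1. For these alternatives the share of all genes passing is not given, so the counts cannot be set against it. Relative to all genes, the median of the 23 was 0.15 for KDM1A TG against nonTG, 0.33 without KDM1A TG replicates 1 and 3, and 0.031 to 0.36 leaving out single arrays. For KDM1A TG against C57BL/6 it was -0.11, 0.086 without those 2 arrays, and -0.20 to 0.064 leaving out single arrays. For nonTG against C57BL/6 it was -0.17, 0.10 with the oviduct covariate, and -0.28 to -0.06 leaving out single arrays. KDM1A TG arrays lay above nonTG arrays in 10 to 11 of the 23 without single arrays, against 8 with all. The share of all genes rose too, from 16.0% with all arrays to between 19.5% and 36.6%. The count among the 23 and the probesets with several symbols were added after seeing the data. The labels do not say that replicate numbers pair pools, and deviations of same-numbered arrays correlated between -0.38 and 0.18. With replicate number as a block, the KDM1A TG minus nonTG differences were 1.52 for H2bc12, 1.34 for H2bc1, 1.44 for H1f5 and 0.77 for H1f1, and 0 other histone genes passed in any comparison. Signal over background is unknown, since scanner files were not used here.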

Other observations

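Probesets shared by H2A variants, nearly all of them H2al1 genes of the X chromosome that encode H2A proteins of spermatids, had 7 members tested. Between KDM1A TG and nonTG, 6 of the 7 lay above 0 with a median of 0.24 (62.2% and 0.13 for all probesets). KDM1A TG arrays lay above nonTG arrays in 3 (14.0% of all probesets) and below them in 1 (6.38% of the genes tested). Of the 7, 0 lay above 0 in KDM1A TG against C57BL/6 (57.1% of all probesets did), with a median of -0.31, and 1 did in nonTG against C57BL/6 (49.3% of all probesets), with a median of -0.60. The nonTG arrays lay below all C57BL/6 arrays in 6 of the 7, where 10.3% of all probesets did so. The probeset with the smallest p, shared by 12 symbols, read 3.26, 3.03 and 3.39 in KDM1A TG, 2.89 and 2.76 in nonTG and 3.81, 4.13 and 3.36 in C57BL/6. Its difference from C57BL/6 was -0.94 in nonTG (limma SE 0.36, adjusted p = 0.521) and -0.54 in KDM1A TG (limma SE 0.32, adjusted p = 0.472). In limma 0 of the 7 passed in any of the 3 comparisons. Against C57BL/6, 2 were lower in nonTG and 1 in KDM1A TG at an unadjusted p under 0.05, against 3.62% and 2.10% of the genes tested. Those shares come from the separate fit of genes, not from the probeset fit that gave these p-values, so they are not a like background. These probesets list many of the same symbols, so they are not 7 separate measurements, and they were singled out after their values were seen.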
